A study of Mus musculus with 11 samples.

Results

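The interleukin 1 family on the NanoString mouse Inflammation panel was read through 7 of its 248 genes, taken by symbol. These were the ligands Il1a, Il1b and Il18, the receptor antagonist Il1rn, and the receptor chains Il1r1, Il1rap and Il18rap. The tables list them as IL1A (gene ID 16175), IL1B (16176), IL18 (16173), IL1RN (16181), IL1R1 (16177), IL1RAP (16180) and IL18RAP (16174), and all 7 had a row in both. The samples were corneas of female C57BL/6 mice kept under desiccating stress (DS), which combines a drafty, dry cage with scopolamine in the drinking water to stop tear secretion. All mice were stressed for 5 days and received daily eye drops of vehicle (3 samples), pan at 10 µM (4 samples) or C1 at 10 µM (4 samples). Pan is a small molecule agonist of all Trk neurotrophin receptors, and C1 is an agonist of TrkC. No unstressed cornea was among the samples, so every level below is a level under DS. One label gives an age of 3 months for all 11 samples. A second label puts all vehicle samples and 3 pan samples at 2 to 3 months, but places pan replicate 4 and every C1 sample at 22 to 24 months. The methods describe young mice only, so this age difference could not be settled. One label names corneal epithelium and another the cornea, and the panel holds no keratin or other defining gene of the epithelium with which to check either.

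Interleukin 1 alpha and beta bind the same receptor, Il1r1, which then recruits the accessory protein Il1rap and signals through Myd88 to NF-kB and the MAP kinases. Il1rn occupies Il1r1 without recruiting the accessory chain, so the balance of ligand to antagonist sets how much receptor can signal. Interleukin 1 alpha is stored in epithelial cells and released when they are injured, interleukin 1 beta comes mainly from myeloid cells and needs cleavage by caspase-1, and interleukin 18 signals through its own receptor, of which Il18rap is the accessory chain. In dry eye, interleukin 1 is known as an early inflammatory signal of the stressed ocular surface.

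The promoters of 3 members are shown because Il1a, Il1rn and Il1rap were high in the same 2 pan samples, as described further on. Each line is the 250 bases before the annotated start in RefSeq (build GRCm38.p6), read in the direction of transcription. Capitals mark an AP-1 site (TGANTCA) or a TATA box (TATAAA). The Il1a window is chr2:129309973-129310222 on the minus strand, the Il1rn window, the most upstream of 3 annotated, is chr2:24336610-24336859 on the plus strand, and the Il1rap window is chr16:26581455-26581704 on the plus strand.
Il1a: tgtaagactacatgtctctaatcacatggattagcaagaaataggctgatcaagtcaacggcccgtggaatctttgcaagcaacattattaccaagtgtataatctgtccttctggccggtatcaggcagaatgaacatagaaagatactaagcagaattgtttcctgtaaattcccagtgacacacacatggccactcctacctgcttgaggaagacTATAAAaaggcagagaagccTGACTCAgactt
Il1rn: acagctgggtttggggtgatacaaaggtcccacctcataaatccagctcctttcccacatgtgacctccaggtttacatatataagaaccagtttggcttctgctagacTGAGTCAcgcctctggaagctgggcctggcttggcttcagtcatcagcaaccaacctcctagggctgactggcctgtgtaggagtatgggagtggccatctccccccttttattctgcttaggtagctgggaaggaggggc
Il1rap: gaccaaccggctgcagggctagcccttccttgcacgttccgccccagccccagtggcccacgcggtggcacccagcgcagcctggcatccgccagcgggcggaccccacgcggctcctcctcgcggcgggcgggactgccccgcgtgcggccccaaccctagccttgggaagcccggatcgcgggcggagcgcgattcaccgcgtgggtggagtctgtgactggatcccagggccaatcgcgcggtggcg
The Il1a window held a TATA box at -32 to -27 and an AP-1 site at -12 to -6 from the start, and the Il1rn window held an AP-1 site at -141 to -135. Neither motif was found in the other annotated Il1rn windows. The Il1rap window held neither motif on either strand and was the richest in G and C of the 10 member windows, at 74.4%, against a median of 52.4% over all windows. Of all 32851 windows of this length, 6.75% held the AP-1 site and 12.4% the TATA box on either strand, with no overlap between both motifs in the windows shown. Of the other members, Il1b had a TATA box at -31 to -26 and Il18 one on the reverse strand at -175 to -170. An NF-kB consensus, present in 3.90% of windows, matched, among the member windows, only the second of the 2 for Il1r1, at -232 to -223. These matches describe letters in a window, and the probe counts do not tell which of the Il1rn starts was in use.

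The values are normalized counts, that is, the hits of a probe on its transcript, scaled by the authors to housekeeping genes. Total probe counts over the 248 genes ran from 64156 to 646446, a 10.1-fold range. The 2 lowest totals were those of pan replicates 1 and 3, the highest was that of pan replicate 4, and all 4 C1 samples lay above the vehicle samples (91955 to 133098). Il1a, Il18, Il1rn, Il1r1 and Il1rap reached a mean log2 value of at least 5, as did 131 of all 248 genes. Il1b and Il18rap were below it. A count of 3 or fewer, the limit that a count of 0 allows, was found for Il1b in 1 of 11 samples and for Il18rap in 6 of 11. Limits of this kind cover counting error only. The methods call the replicates biological, but the labels do not say whether each came from a separate mouse, so p-values measure the spread between these samples, which may be in part technical. Both treatments were compared with the same vehicle samples. In a whole cornea sample, fewer cells of a type and less RNA per cell cannot be told apart.

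Il1a was the member that stood furthest from vehicle. Its normalized counts were 414, 318 and 285 in the vehicle samples, 1347, 539, 1185 and 481 in pan replicates 1 to 4, and 557, 539, 377 and 532 in C1 replicates 1 to 4. All 4 pan samples were above every vehicle sample, and 3 of 4 C1 samples were. Within the pan group, replicates 1 and 3 formed a high pair, and replicates 2 and 4 lay beside the C1 samples. The group means ± SD were 888 ± 442 for pan (n = 4), 501 ± 83.5 for C1 (n = 4) and 339 ± 67.4 for vehicle (n = 3).

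Against vehicle, Il1a with pan differed by a log2 fold change of 1.26 (SE 0.42, 95% CI 0.29 to 2.23), a 2.40-fold ratio of geometric means. The unadjusted p of 0.0173 in limma became an adjusted p of 0.239 over 248 genes, so Il1a did not pass the test. An exact two-sided permutation test of 4 against 3 samples gave p = 0.0571, which is the smallest that design allows. With C1 the log2 fold change was 0.57 (SE 0.21, 95% CI 0.08 to 1.05, unadjusted p = 0.0289, limma adjusted p = 0.436). The direct difference, C1 minus pan, was -0.70 on the log2 scale (SE 0.37, 95% CI -1.53 to 0.14, limma adjusted p = 0.365). The order of means was thus pan, C1, vehicle, and none of the 3 steps between them passed the test. With log2 total count as a covariate in a fit of all 3 groups, the pan difference was 1.35 (adjusted p = 0.0418) and the C1 difference 1.07, which did not pass. With the second age label as the covariate, the differences were 1.51 (adjusted p = 0.0461) and 1.55, which did not pass. In that fit pan replicate 4 alone separates age from treatment, so the pan value is the one without that sample and the C1 value rests on it. Over all alternatives the adjusted p ran from 0.0418 to 0.591 for pan and from 0.211 to 0.865 for C1. Among samples labelled 2 to 3 months, which leaves out pan replicate 4, the pan difference was 1.51 (adjusted p = 0.154). Among those labelled 22 to 24 months, the C1 samples had a mean log2 value of 8.95 and the lone pan sample 8.91.

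**Figure D1:**
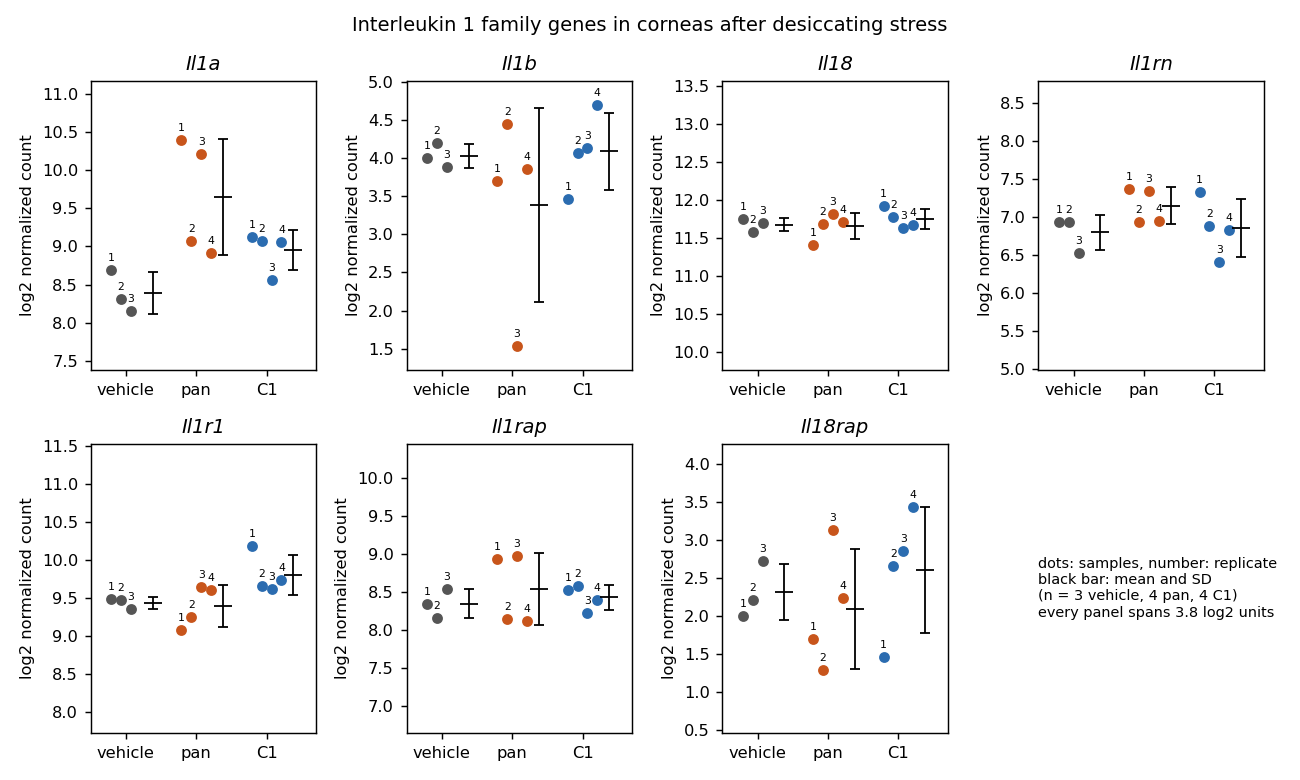
Log2 normalized count of each of the 7 members (vertical axis) in vehicle, pan and C1 corneas after 5 days of DS. Dots are samples with their replicate number, black bars are the mean and SD (n = 3, 4 and 4), and panels span the same number of log2 units. Pan replicates 1 and 3 stand high for Il1a (10.40 and 10.21) and for Il1rn and Il1rap.

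Il1b, the ligand of myeloid cells, was close to the limit of detection. Its normalized counts were 16.0, 18.4 and 14.8 with vehicle, 13, 22.0, 2.90 and 14.5 with pan, and 11, 16.8, 17.5 and 25.9 with C1. The groups overlapped, and the low value of pan replicate 3 rested on a single probe count. Relative to vehicle, Il1b differed by -0.64 log2 units with pan (SE 0.63, 95% CI -2.11 to 0.82, limma adjusted p = 0.729) and 0.06 with C1 (SE 0.28, 95% CI -0.61 to 0.73, limma adjusted p = 0.939). Without pan replicate 3 the pan value was -0.028 (SE 0.28). With all samples the intervals leave room for a more than 2-fold difference with pan, so a change of that size was not detectable at this depth. C1 minus pan was 0.70 (95% CI -0.62 to 2.03, limma adjusted p = 0.602), and leaving out each sample moved it between 0.087 and 1.06. Means ran from C1 (17.8 ± 6.14) through vehicle (16.4 ± 1.85) to pan (13.1 ± 7.84), with neighbours closer than the larger SD.

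Il18, the ligand that induces interferon gamma in lymphocytes, spanned the narrowest log2 range of the family over the 11 samples, from 11.41 to 11.92. It had 3441, 3075 and 3330 normalized counts with vehicle, 2726, 3309, 3611 and 3346 with pan, and 3878, 3516, 3176 and 3263 with C1. Pan samples lay on both sides of the vehicle range, and 2 of 4 C1 samples lay above it. In log2 units, Il18 differed from vehicle by -0.02 with pan (95% CI -0.51 to 0.46, limma adjusted p = 0.958), 0.07 with C1 (95% CI -0.24 to 0.38, limma adjusted p = 0.860) and 0.09 for C1 minus pan (95% CI -0.31 to 0.50, limma adjusted p = 0.776). A doubling of Il18 is outside all 3 intervals. Means were 3458 ± 315 with C1, 3282 ± 188 with vehicle and 3248 ± 373 with pan, and the order of the last 2 turned when samples were centred on their median gene.

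Il1rn, the antagonist, was measured from 50 to 391 probe counts per sample. Normalized counts were 122, 122 and 92.1 with vehicle, 166, 122, 162 and 123 with pan, and 161, 118, 84.6 and 114 with C1. Pan replicates 1 and 3, the samples with the most Il1a, were also the highest for Il1rn, with C1 replicate 1 beside them. The Il1rn log2 fold change came to 0.35 with pan (SE 0.24, 95% CI -0.20 to 0.90, limma adjusted p = 0.577) and 0.06 with C1 (SE 0.24, 95% CI -0.50 to 0.63, limma adjusted p = 0.920). C1 minus pan was -0.29 (95% CI -0.83 to 0.26, limma adjusted p = 0.602), with 3 of 4 C1 samples below the lowest pan sample. Leaving out each sample gave 0.21 to 0.42 for pan against vehicle and -0.44 to -0.13 for C1 minus pan. Means were 143 ± 23.9 with pan, 119 ± 31.5 with C1 and 112 ± 17.3 with vehicle, each step within the SD.

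The ratio of Il1a to Il1rn within a sample does not depend on the normalization factor of that sample. Its absolute size depends on how well each probe is counted, so only its differences between samples are read here. The ratio was 3.39, 2.60 and 3.09 with vehicle, 8.14, 4.42, 7.30 and 3.91 with pan, and 3.46, 4.58, 4.46 and 4.68 with C1. Every pan and every C1 sample was above the 3 vehicle samples, although C1 replicate 1 exceeded vehicle replicate 1 by little. All C1 samples also differed from vehicle in the second age label and had higher totals. For C1 against vehicle, treatment, age label and depth cannot be told apart in this ratio. Mean ratios were 5.94 ± 2.09 with pan, 4.29 ± 0.563 with C1 and 3.03 ± 0.398 with vehicle. The geometric mean was 1.88-fold that of vehicle with pan (log2 difference 0.91, SE 0.28) and 1.42-fold with C1 (log2 difference 0.50, SE 0.15). Exact two-sided permutation tests gave p = 0.0571 for each, the smallest possible, and 0.129 after Benjamini-Hochberg adjustment over 9 ratio tests. C1 and pan overlapped (log2 difference -0.41, SE 0.28, exact permutation p = 0.286, adjusted 0.367). Among samples labelled 22 to 24 months the order was the other way, with a mean log2 ratio of 2.09 for C1 and 1.97 for the lone pan sample. Leaving out each sample in turn gave log2 differences from vehicle of 0.74 to 1.09 for pan and 0.40 to 0.60 for C1.

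The ratio of Il1b to Il1rn did not separate the groups. It was 0.131, 0.151 and 0.161 with vehicle, 0.0784, 0.180, 0.0179 and 0.118 with pan, and 0.0684, 0.143, 0.207 and 0.228 with C1. Both treated groups reached above and below the vehicle range. The log2 difference from vehicle was -0.99 with pan (SE 0.73, exact permutation p = 0.343) and -0.0046 with C1 (SE 0.40, exact permutation p = 0.971), and C1 minus pan was 0.99 (SE 0.83, exact permutation p = 0.257). Leaving out each sample moved the pan value between -1.42 and -0.31, the latter without pan replicate 3, and C1 minus pan between 0.31 and 1.42. With both ligands summed over Il1rn, Il1a made up nearly all of the sum, and the log2 differences were 0.87 with pan (SE 0.27), 0.48 with C1 (SE 0.15) and -0.39 for C1 minus pan (SE 0.27).

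**Figure D2:**
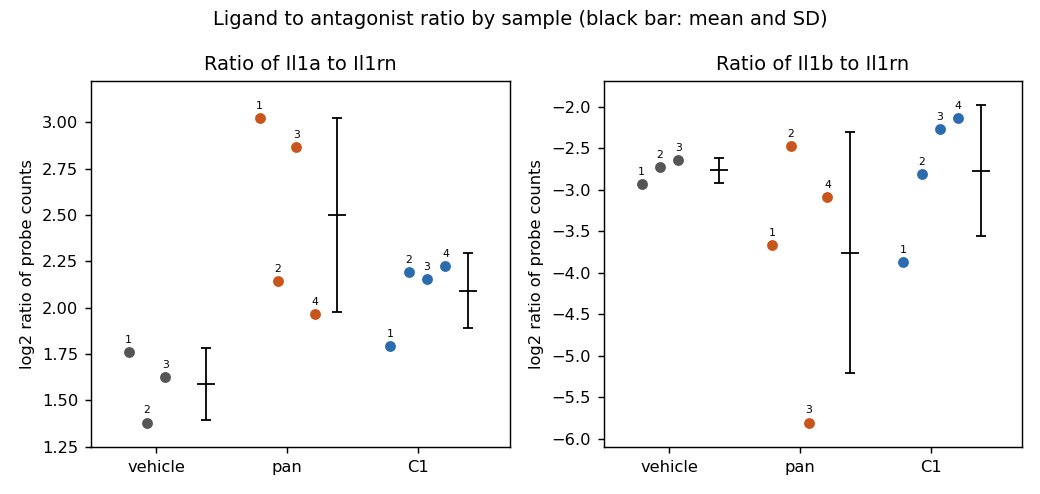
Log2 ratio of the Il1a (left) or Il1b (right) probe count to the Il1rn probe count (vertical axes) in each vehicle, pan and C1 sample. Dots are samples with their replicate number and black bars are the mean and SD (n = 3, 4 and 4). On the left all treated samples lie above the vehicle samples, whose ratios are 3.39 or less on the linear scale, and on the right the groups overlap.

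Il1r1, the signalling receptor of both interleukin 1 ligands, was the member that separated C1 from vehicle. Normalized counts were 721, 710 and 653 with vehicle, 539, 608, 800 and 779 with pan, and 1161, 811, 786 and 853 with C1. All 4 C1 samples exceeded every vehicle sample, C1 replicate 1 by the widest margin, while pan samples lay 2 above and 2 below the vehicle range. The log2 fold change with C1 was 0.36 (SE 0.17, 95% CI -0.05 to 0.77), a 1.28-fold ratio, with an unadjusted limma p of 0.0738 and an adjusted p of 0.452. The exact permutation p was 0.0571, again the smallest possible. It was 0.23 when C1 replicate 1 was left out and 0.08 when the second age label was a covariate, a value that rests on pan replicate 4. With pan it was -0.05 (95% CI -0.58 to 0.49, limma adjusted p = 0.942), and C1 minus pan was 0.41 (SE 0.22, 95% CI -0.09 to 0.90, limma adjusted p = 0.374). Means were 903 ± 174 with C1, 695 ± 36.4 with vehicle and 681 ± 128 with pan. The last 2 were closer than their SDs.

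Il1rap, the accessory chain shared by receptors of the family, had 324, 286 and 370 normalized counts with vehicle, 487, 283, 501 and 278 with pan, and 367, 380, 297 and 336 with C1. Pan replicates 1 and 3 were above all other samples, and pan replicates 2 and 4 below all others. On the log2 scale, Il1rap differed from vehicle by 0.20 with pan (95% CI -0.50 to 0.89, limma adjusted p = 0.845), 0.08 with C1 (95% CI -0.28 to 0.45, limma adjusted p = 0.871) and -0.12 for C1 minus pan (95% CI -0.70 to 0.46, limma adjusted p = 0.801). Means were 387 ± 123 with pan, 345 ± 36.9 with C1 and 327 ± 42.2 with vehicle, steps smaller than the SD of pan.

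Il18rap, the accessory chain of the interleukin 18 receptor, found mainly on T and NK cells, was at background. It was among the 62 genes with the lowest mean on the panel, with 2 to 4 probe counts with vehicle, 1 to 15 with pan and 2 to 25 with C1. The higher counts came from the samples with higher totals. Mean normalized counts were 5.06 ± 1.35 with vehicle, 4.77 ± 2.78 with pan and 6.77 ± 3.31 with C1. Il18rap differed from vehicle by -0.22 log2 units with pan (95% CI -1.24 to 0.80, limma adjusted p = 0.915), 0.29 with C1 (95% CI -0.79 to 1.38, limma adjusted p = 0.852) and 0.51 for C1 minus pan (95% CI -0.61 to 1.64, limma adjusted p = 0.621). Differences in Il18rap were not detectable at this depth.

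**Figure D3:**
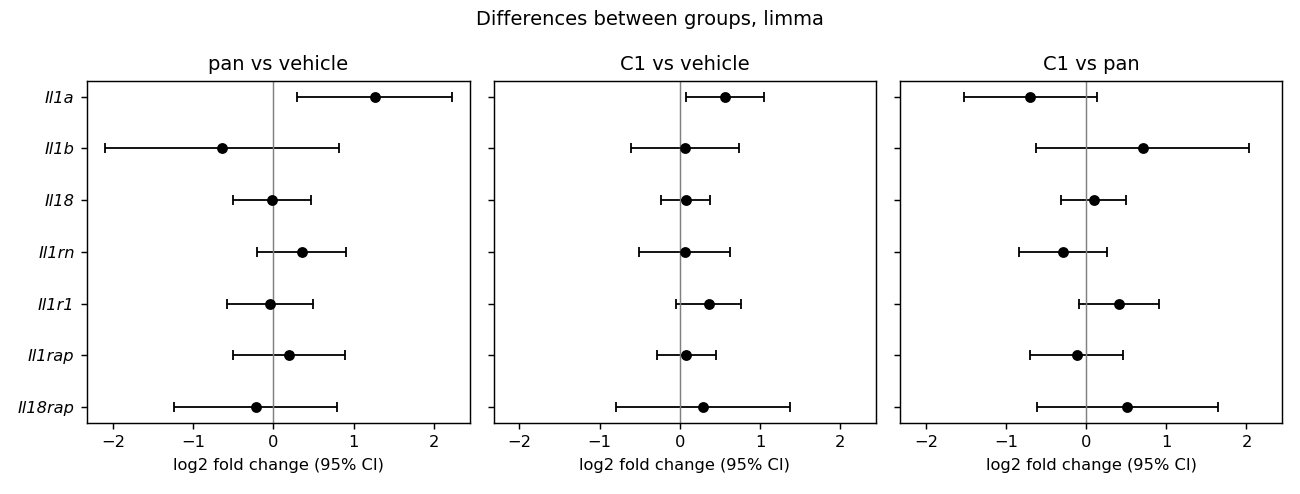
Log2 fold change of each member (horizontal axis) in the 3 comparisons, from limma, with dots for the estimate and bars for the 95% CI. The Il1a intervals against vehicle lie above 0 (0.29 to 2.23 with pan, 0.08 to 1.05 with C1) before adjustment for 248 genes, and all other intervals include 0.

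As a family, 0 of 7 members passed an adjusted p of 0.05 in limma in any of the 3 comparisons. Over all genes, 2.02% passed for pan against vehicle, 0% for C1 against vehicle and 0.403% for C1 against pan. With voom weights, 0 genes passed for C1 against vehicle too. At an unadjusted p under 0.05, the members gave Il1a for pan against vehicle, Il1a for C1 against vehicle and none for C1 against pan, where 12.5%, 10.5% and 15.3% of all genes passed. A count of 1 in 7 is close to the share of the panel in both comparisons with vehicle. Members higher than vehicle with no overlap were Il1a with pan, against 2.42% of all genes, and Il1r1 with C1, against 6.05%. Log2 fold changes were above 0 for 3 of 7 members with pan and for 7 of 7 with C1, 4 of the latter by under 0.1. The member median was -0.02 with pan and 0.08 with C1, beside -0.20 and -0.02 over all 248 genes. For C1 minus pan it was 0.09, beside 0.23.

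Members were also compared with each other across the 11 samples, in 21 pairs. Il1a and Il1rn varied together (Pearson r = 0.78, permutation p = 0.00454, adjusted 0.0576; Spearman rho = 0.68, permutation p = 0.0249, adjusted 0.263). Without pan replicates 1 and 3, the samples farthest from the median of Il1a, r was 0.60, and among the 6 samples labelled 2 to 3 months it was 0.92. After subtraction of group means r was 0.73, so the relation was present within groups. The 5 samples labelled 22 to 24 months were too few for a value of their own, here and for the pairs below. No pair passed after adjustment.

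Il1a and Il1rap gave r = 0.76 (permutation p = 0.00813, adjusted 0.0576) and rho = 0.48 (permutation p = 0.138, adjusted 0.453). Without pan replicates 1 and 3, r was 0.09, so the relation over all samples rested on those samples. After subtraction of group means it was 0.88, and 0.76 without the 2 samples that deviated most. Among the 6 samples labelled 2 to 3 months r was 0.79. Il18 and Il1r1 gave r = 0.78 (permutation p = 0.00864, adjusted 0.0576) and rho = 0.60 (permutation p = 0.0565, adjusted 0.396). That value fell to 0.22 without pan replicate 1 and C1 replicate 1 and was 0.80 among the 6 samples. After subtraction of group means it was 0.81, and 0.67 without the 2 samples that deviated most. Il1b and Il1rap ran in opposite directions (r = -0.69, permutation p = 0.0110, adjusted 0.0576; rho = -0.54, permutation p = 0.0935, adjusted 0.453). Without pan replicate 3 and C1 replicate 4, r was -0.60, and among the 6 samples -0.77. Those 6 include pan replicate 3, where Il1b was 1 probe count. After subtraction of group means r was -0.67, and -0.32 without the 2 samples that deviated most.

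Depth was compared with each member, and no relation with total count passed after adjustment. Pan replicates 1 and 3, which were high for Il1a, Il1rn and Il1rap, had the lowest totals of all samples (64156 and 81855). Across the 11 samples, log2 total count gave r = -0.35 with Il1a (permutation p = 0.293, adjusted 0.342; rho = -0.36, permutation p = 0.273, adjusted 0.383), and r was -0.46 without pan replicate 4 and C1 replicate 4. After subtraction of group means this r was -0.68, and -0.28 without the 2 samples that deviated most in total. With Il1rn it gave r = -0.49 (permutation p = 0.125, adjusted 0.293; rho = -0.55, permutation p = 0.0880, adjusted 0.308), and r was -0.63 without pan replicate 4 and C1 replicate 4. After subtraction of group means it was -0.59, and -0.66 without the 2 samples that deviated most. These are 2 of 7 such relations, 1 for each member. Il1rap gave r = -0.47, while Il18, Il1b, Il18rap and Il1r1 went the other way (r = 0.20, 0.39, 0.45 and 0.46). The part of depth in the high values of pan replicates 1 and 3 was not tested.

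**Figure D4:**
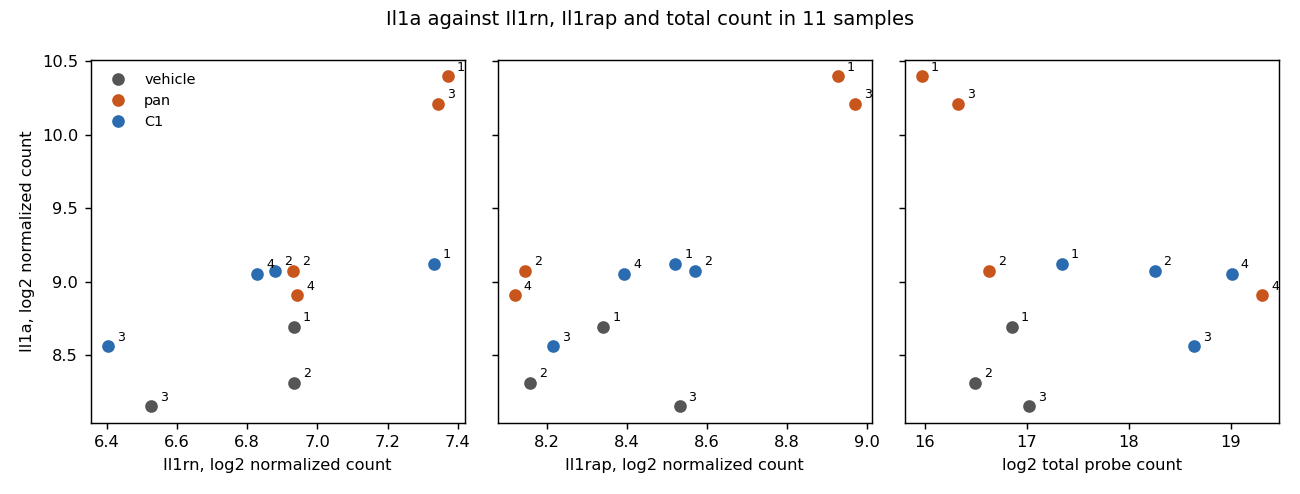
Log2 normalized count of Il1a (vertical axis) against that of Il1rn, that of Il1rap and the log2 total probe count (horizontal axes) in 11 samples. Dots are samples, coloured by group, with their replicate number. Pan replicates 1 and 3 lie at the top of all 3 panels, with high Il1rn and Il1rap and the lowest totals (64156 and 81855).

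The genes whose log2 values were most like those of a member are given as a description over the same 11 samples, among 126 genes whose mean log2 reached 5. They share normalization and depth with the member. For Il1a they were Cd55, a membrane inhibitor of complement (r = 0.80), Tnfaip3, an inhibitor of NF-kB signalling (r = 0.80), and Cdc42, a small GTPase of the cytoskeleton (r = 0.79). For Il1rn they were Daxx (r = 0.87), Cd55 (r = 0.80) and Gnb1, a G protein subunit (r = 0.78). For Il1b they were the interferon regulator Irf3 (r = 0.87, rho = 0.68), the kinase Map3k9 (r = 0.80, rho = 0.61) and the complement protease C1s1 (r = 0.79, rho = 0.28). Irf3, Map3k9 and C1s1 were each lowest in pan replicate 3, where Il1b was 1 probe count. After subtraction of group means, the likeness to Il1a was 0.84 for Cd55, 0.83 for Cdc42 and 0.43 for Tnfaip3. The last thus lay in part between the groups.

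Downstream of the receptors, 12 genes of the shared signalling route from Myd88 to NF-kB and the MAP kinases were on the panel, and 0 passed an adjusted p of 0.05 in limma in any comparison. The median of their log2 fold changes was -0.0048 in pan and 0.02 in C1, beside -0.20 and -0.02 over all genes. Jun, a subunit of AP-1, had the smallest p of this group with C1, at a log2 fold change of 0.60 (SE 0.19, limma adjusted p = 0.370) with no overlap with vehicle, and 0.43 with pan (limma adjusted p = 0.517). Mapk8, the kinase JNK1, had 0.21 with C1 (limma adjusted p = 0.567). Map2k6, which activates p38, had -0.53 with pan (limma adjusted p = 0.577).

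Of 13 measured genes that interleukin 1 is known to induce, 2 rose with pan and 0 with C1, where 2.02% and 0% of all genes passed in either direction. Cxcl1, a neutrophil chemokine, had 16.0, 9.22 and 16.4 normalized counts with vehicle, 55.2, 48.8, 37.7 and 56.3 with pan, and 23.4, 17.5, 19.1 and 156 with C1. For Cxcl1 the log2 fold change came to 1.86 in pan (SE 0.29, limma adjusted p = 0.0181) and 1.31 in C1 (SE 0.79, limma adjusted p = 0.567), where C1 replicate 4 stood far above the rest. These values rested on few probe counts, 8, 4 and 10 with vehicle and 17, 20, 13 and 179 in pan replicates 1 to 4. The mean log2 value of Cxcl1 was below 5, so the fit of only the higher genes did not hold it. Tnfaip3 had 344, 320 and 273 with vehicle, 1405, 1176, 1145 and 854 with pan, and 585, 395, 385 and 1131 with C1. Its difference on the log2 scale was 1.86 in pan (SE 0.25, limma adjusted p = 0.00846) and 0.86 in C1 (SE 0.39, limma adjusted p = 0.452), where C1 replicate 4 again stood well above the rest. For Cxcl1 and Tnfaip3 all pan samples were high, not only replicates 1 and 3. The median of the 13 genes was -0.04 with pan and 0.25 with C1, beside -0.20 and -0.02 over all genes. Cxcl5, at 3, 3 and 4 probe counts with vehicle, was too low for a fold change (limma adjusted p = 0.436 with C1). So was Csf2, at 1 to 3 probe counts with vehicle and 1 to 6 with C1.

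Of 7 genes upstream of the ligands, the receptors and cytokines that prime their production and the inflammasome gene Nlrp3, 0 passed in any comparison. The median of their log2 fold changes was 0.14 in pan and 0.35 in C1, beside -0.20 and -0.02 over all genes. Tnf, a cytokine that induces Il1a and Il1b, had 54.1, 62.2 and 31.2 normalized counts with vehicle, 42.2, 193, 55.1 and 284 with pan, and 59.2, 89.7, 114 and 302 with C1. Pan replicates 2 and 4, not 1 and 3, were the high ones, the reverse of Il1a. Tnf differed from vehicle by 1.17 log2 units with pan (limma adjusted p = 0.542) and 1.30 with C1 (limma adjusted p = 0.452). The bacterial sensor Nod2, at only 6, 10 and 3 probe counts with vehicle, had 1.13 with pan (limma adjusted p = 0.460) and 1.01 with C1 (limma adjusted p = 0.452). Tlr2 had -0.43 with pan (limma adjusted p = 0.605) and 0.35 with C1 (limma adjusted p = 0.452).

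Of 5 genes around interleukin 18, which acts with interleukin 12 to induce interferon gamma, 1 fell with pan and 0 with C1, beside the same 2.02% and 0% of all genes. Ifng, which encodes interferon gamma, averaged 2.93 ± 0.359 normalized counts (SD, n = 4) in the pan samples against 15.6 ± 3.29 (SD, n = 3) in vehicle. Its limma adjusted p was 0.00246 with pan and 0.211 with C1. Ifng had 6, 8 and 10 probe counts with vehicle, and 1, 1, 1 and 10 with pan, so only pan replicate 4, the deepest sample, was above the limit of 3 counts in its group. The others give only an upper bound, so no size is given for the fall, and the spread of the pan samples is that of values at the limit. With C1 it had 3, 8, 7 and 22 probe counts. Fasl, a death ligand of T cells, had 1 to 8 probe counts with pan and 2 to 7 with vehicle, too few for a fold change (limma adjusted p = 0.550). The median of the 5 genes was -0.46 with pan and -0.36 with C1, beside -0.20 and -0.02 over all genes, while Il18 itself differed by -0.02 and 0.07.

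Markers of immune cells that can carry Il1b and Il18rap were at low counts. The summed normalized counts of 8 myeloid markers ran from 222 to 357 with vehicle, 161 to 229 with pan and 262 to 369 with C1. Their log2 fold change was below 0 for 7 of 8 with pan and above 0 for 7 of 8 with C1, and 0 of 8 passed in limma. The lowest p with pan was that of C3ar1, at -1.18 (limma adjusted p = 0.0955). For 3 T cell markers the sums were 19.7 to 26.0, 13 to 17.4 and 20.6 to 30.7, and the markers did not go one way. Cd4 averaged 3.56 ± 1.44 normalized counts with pan and 11.5 ± 4.55 with vehicle (limma adjusted p = 0.0912), with 1 probe count in each of pan replicates 1 to 3. Cd40lg averaged 8.08 ± 2.36 with pan and 3.87 ± 1.92 with vehicle (limma adjusted p = 0.239), with 1 to 3 probe counts in the vehicle samples. For 2 neutrophil markers, Cxcr1 and Cxcr2, the sums were 10.0 to 27.7, 5.80 to 9.76 and 6.88 to 17.3. For all 3 lists the pan sums lay lowest or among the lowest, while the C1 and vehicle sums overlapped. The Il1b mean was also lowest with pan, but this rested on pan replicate 3, at 1 probe count. Without that sample Il1b differed from vehicle by -0.028 log2 units. The part of these cells in the Il1b values was not tested.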

How the data were processed

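Normalized counts of 248 genes in 3 vehicle, 4 pan and 4 C1 cornea samples were deposited by the authors on the log2 scale in 2 tables. The authors had divided nCounter counts in ROSALIND by the geometric mean of housekeeping probes and had dropped samples that failed quality control. Between the tables, 0 vehicle values differed. Columns with the authors' fold changes and p-values were not used. In each sample all values were within 0.01 counts of whole multiples of 1 step, from which probe counts were recovered. Of the gene IDs, 247 matched RefSeq.

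Each comparison was fitted by limma 3.58.1 (lmFit, eBayes) in R 4.3.3 on the deposited log2 values, and p-values were adjusted by Benjamini-Hochberg over 248 genes at a threshold of 0.05. No filter or pseudocount was applied, and the 2 groups compared entered each fit, except that fits with a covariate held all 3 groups. Ratios were tested by exact permutation, and correlations by 100000 permutations, in Python 3.11.15 (scipy 1.17.1, numpy 2.4.6, pandas 2.3.3, matplotlib 3.10.9). On simulated data with 248 genes, the fit recovered 83.0% (pan), 81.3% (C1) and 87.0% (C1 against pan) of log2 changes of 2, and 45.9%, 51.8% and 54.8% of changes of 1. The share of false calls was 5.92%, 3.62% and 5.43%. These shares depend on how many genes were changed. Recovery in the deposited samples, with few genes passing, unequal depth and many low counts, was not tested.

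The members and gene lists were chosen with earlier results of these data known. Genes named beyond the members were those of a list that passed the adjusted p in any comparison, the 2 of each list with the smallest p in a comparison with vehicle, and the 3 genes most correlated with Il1a, Il1b or Il1rn. Alternatives were no moderation, a mean-dependent prior, median centring, only genes whose mean log2 reached 5, a pseudocount of 10, a single fit of all 3 groups, a replicate block, subtraction of the mean of 62 background genes (floor 1), log2 total count or the second age label as a covariate, voom weights, a log2 fold change threshold of 1.2, and leaving out each sample.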

Additional observations from a re-analysis of the deposited data

Results flagged for a closer look

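In each group of 4 samples, a sample was picked out where its gap to the nearest other sample took up more of the range of the group than Dixon's 95% limit allows. Of 20 groups tested over the members and ratios, 3 had such a sample, and chance gives about 1 in 20. For Il1a, C1 replicate 3 lay at a log2 value of 8.56, below the other C1 samples at 9.05 to 9.12, and rested on 731 probe counts. For the log2 ratio of Il1a to Il1rn, C1 replicate 1 lay at 1.79, below the others at 2.16 to 2.23. For the log2 ratio of Il1a plus Il1b to Il1rn, the same sample lay at 1.82, below the others at 2.22 to 2.30. The last ratios share most of their counts, so they are not separate observations.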

How the results depend on the processing

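Il1a passed the adjusted p of 0.05 with pan under 2 alternatives, log2 total count as a covariate (1.35) and the second age label as a covariate (1.51, the value without pan replicate 4, which alone carries the age term), and under no other, and no other member passed under any alternative in any comparison. Of 225 member values recomputed under alternatives that kept all samples, 209 kept direction and side of the threshold. The ratios were recomputed only with a pseudocount of 10, with background subtracted and without each sample, and that of Il1a to Il1rn kept its direction in these; covariates were not run on the ratios. The covariates also moved the Il1a difference with C1, to 1.07 with total count and 1.55 with the age label, neither of them passing, and the latter resting on pan replicate 4 alone.

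Some values turned in sign, most of them near 0, and the cause was not tested. Exceptions were Il1a for C1 minus pan, at -0.70 before the age label was a covariate, and Il18rap for C1 minus pan, at 0.51 before background was subtracted. With median centring, which shifted C1 minus pan by -0.14 over all genes, Il18 with pan was 0.047, Il1r1 with pan 0.022, Il1b with C1 -0.012, Il1rn with C1 -0.0072 and Il18 for C1 minus pan -0.045. With background subtracted, Il18rap was 0.47 with pan and -0.47 for C1 minus pan, and the log2 ratio of Il1b to Il1rn with C1 was 0.27. With total count as a covariate, Il1b with C1 was -0.40, Il18rap with C1 -0.098 and Il1rap for C1 minus pan 0.12. With the age label, Il1b with C1 was -0.57, Il1a for C1 minus pan 0.043 and Il1rap for C1 minus pan 0.30.

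Genes passing over the whole panel numbered 5 for pan against vehicle, and 2 without moderation, 1 with only genes whose mean log2 reached 5, 3 with background subtracted, 8 with total count, 9 with the age label and 3 with voom weights. For C1 against vehicle they numbered 0, and 2 with a mean-dependent prior, 4 with only the higher genes and 1 with background subtracted. For C1 against pan the 1 gene became 0 with a mean-dependent prior, median centring, a pseudocount of 10, a single fit of all 3 groups, either covariate or voom weights. Leaving out each sample gave 1 to 7 genes for pan against vehicle, 0 for C1 against vehicle in every case and 0 to 1 for C1 against pan.

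Leaving out each sample, Il1a ran from 1.01 to 1.51 with pan, from 0.45 to 0.72 with C1 and from -0.94 to -0.45 for C1 minus pan. Ranges that crossed 0 were, with pan, Il18 (-0.074 to 0.061), Il1r1 (-0.13 to 0.060) and Il18rap (-0.57 to 0.044), with C1, Il1b (-0.14 to 0.27), Il1rn (-0.093 to 0.22), Il1rap (-0.012 to 0.17) and the log2 ratio of Il1b to Il1rn (-0.22 to 0.36), and for C1 minus pan Il1rap (-0.26 to 0.027).

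The labels do not say whether same-numbered samples are paired, and the correlations of their deviations from group means were mixed. They were 0.06 to 0.31 for pan with vehicle, -0.05 to 0.04 for C1 with vehicle and -0.05 to 0.57 for C1 with pan. With the replicate block, genes passing numbered 5, 0 and 1 in the 3 comparisons, Il1a with pan was 1.51, where pan replicate 4 has no partner, and Il1b with C1 was -0.14. Depth limits Il1b and Il18rap, which had 1 probe count in some samples.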
